A study of Drosophila melanogaster with 2 samples.

Results

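The nuclear genes that encode the proteins of the mitochondrial ribosome were examined for peaks of tagged Pleiohomeotic (Pho) in whole embryos of Drosophila melanogaster. Members were all protein-coding genes of the dm6 annotation whose symbol begins with mRpL or mRpS, which gave 73 of 13945 genes. By symbol, 47 were of the large (mRpL) and 26 of the small subunit (mRpS), and the place of each protein was not checked otherwise. The rule reads symbols only, but the family was picked with earlier results of these data known. Chromatin immunoprecipitation followed by sequencing had been done on embryos of both sexes, 0 to 24 h old, from a line that carries a transgene for Pho whose C terminus is fused to GFP, the green fluorescent protein, with an anti-GFP antibody. There was 1 group of 2 biological replicates, numbered 3 and 4, both of this line, so no other genotype or treatment was compared. The labels do not say whether the embryos also made untagged Pho. No library from embryos without the tag was used here, and Pho at a promoter and GFP-antibody signal at any open promoter therefore cannot be told apart. Whole embryos hold all cell types, and in a weak peak few bound cells and little binding per cell cannot be told apart.

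Mitochondria keep a small genome that codes for core subunits of the respiratory chain, and a dedicated ribosome translates them. The RNAs of that ribosome come from mitochondrial DNA, whereas all its proteins are made in the cytosol from nuclear genes and imported. Many of the proteins have counterparts in the bacterial ribosome, and others were added during the evolution of mitochondria. Pho is a zinc finger protein with a GCCAT core in its known DNA site. It recruits Polycomb repressors at developmental genes, and genes of the mitochondrial ribosome, which nearly all cells use, are not among its classical targets.

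Sequences under some of the summits of the family are shown first, because the results turn on where the summit lies and which words it holds. The windows reach 50 bp either side of the summit on pooled reads, on the plus strand of RefSeq's release 6 genome (dm6), trimmed so that at most 30 bases are annotated as UTR. Capitals mark any of 10 words searched on both strands, which were GCCAT, GCCATNTT and AGATGGC (forms of the Pho site), TATCGATA and its inner part ATCGAT (the factor DREF), GGTCACACT (promoter motif 1, the factor M1BP), TATAAA (the TATA box), GAGAG (the GAGA factor), CACGTG (an E-box) and TGCGCA (the core of sites of the factor NRF-1, called Ewg in flies). GCCATNTT holds GCCAT, and AGATGGC holds its reverse complement, so these are not independent.
mRpS10 (chr3R:15229487-15229587): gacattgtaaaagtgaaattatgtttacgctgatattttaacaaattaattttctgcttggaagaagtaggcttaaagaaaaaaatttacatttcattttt
mRpS23 (chr2L:13835408-13835508): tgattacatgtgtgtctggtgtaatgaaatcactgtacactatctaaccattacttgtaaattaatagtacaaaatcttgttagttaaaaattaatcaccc
mRpL23 (chr3L:2373580-2373626): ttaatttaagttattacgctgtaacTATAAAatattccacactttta
mRpL24 (chr2L:4945458-4945558): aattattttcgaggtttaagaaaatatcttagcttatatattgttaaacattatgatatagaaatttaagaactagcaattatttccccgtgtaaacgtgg
mRpL47 (chr3R:9515928-9516028): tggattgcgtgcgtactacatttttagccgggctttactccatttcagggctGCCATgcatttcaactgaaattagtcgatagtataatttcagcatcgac
mRpL4 (chr2L:16329180-16329280): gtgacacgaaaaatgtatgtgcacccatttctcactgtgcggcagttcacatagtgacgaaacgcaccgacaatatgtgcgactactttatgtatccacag
Of the strongest members, the windows of mRpL41 (the strongest of all), mRpL34 and mRpL53 are not shown, and these 6 are the strongest of the others. Among the 6, mRpL47 holds GCCAT and mRpL23 holds TATAAA, and the window of mRpL41 that is not shown holds GCCAT and GCCATNTT as well. The window of mRpL23 stops short of its summit, which lies in the gene's own 5' UTR, and a GAGAG beyond it is not shown. A further 7 windows are shown because they hold a word of the list.
mRpL21 (chr3L:19255256-19255356): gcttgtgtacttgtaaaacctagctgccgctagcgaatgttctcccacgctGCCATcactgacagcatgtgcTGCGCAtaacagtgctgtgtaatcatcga
mRpL16 (chrX:1890057-1890157): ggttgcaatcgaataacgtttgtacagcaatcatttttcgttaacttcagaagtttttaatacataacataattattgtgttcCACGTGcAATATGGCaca
mRpL10 (chr2L:203671-203771): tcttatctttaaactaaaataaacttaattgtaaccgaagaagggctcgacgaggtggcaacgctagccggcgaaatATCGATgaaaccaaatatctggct
mRpL48 (chr2L:1710412-1710481): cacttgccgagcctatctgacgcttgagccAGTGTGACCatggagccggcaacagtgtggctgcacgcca
mRpS26 (chr3L:18106263-18106363): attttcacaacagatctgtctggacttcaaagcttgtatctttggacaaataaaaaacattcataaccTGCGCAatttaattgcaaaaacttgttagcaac
mRpS7 (chr2L:10386366-10386466): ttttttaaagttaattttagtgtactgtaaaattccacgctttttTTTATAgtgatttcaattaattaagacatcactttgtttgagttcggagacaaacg
mRpL37 (chr3R:10784134-10784234): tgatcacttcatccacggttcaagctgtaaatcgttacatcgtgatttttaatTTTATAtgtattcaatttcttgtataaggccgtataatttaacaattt
In these, mRpL21 had GCCAT and TGCGCA, mRpL16 had CACGTG beside a match to GCCATNTT on the minus strand, mRpL10 had ATCGAT, mRpL48 had GGTCACACT on the minus strand, mRpS26 had TGCGCA, and mRpS7 and mRpL37 had TATAAA on the minus strand. A GCCAT at mRpL48 and a CACGTG at mRpL27 lie in bases not shown.

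A gene was called bound when the summit of a peak on the authors' optimal list, the 4293 peaks that passed their threshold on the irreproducible discovery rate, was at most 1000 bp from any of its transcript starts. By this measure 37 of the 73 members were bound (50.7%), against 3642 of all 13945 protein-coding genes (26.1%). The difference between these shares was not tested. By subunit, peaks stood at 24 of 47 genes of the large subunit and 13 of 26 of the small subunit. Gene numbers largely separate proteins with bacterial counterparts (up to 36 in the large and 21 in the small subunit, and mRpS24 and mRpS28) from those added later. The separation is not exact: mRpL47, for example, counts here with the second kind. Of the first kind 23 of 44 were bound (52.3%) and of the second 14 of 29 (48.3%). Peaks thus lay at genes of both subunits and both origins in about equal measure. Each of the 37 genes had exactly 1 optimal summit within 1000 bp, and no 2 members shared a peak. The closest member genes, mRpL3 and mRpS30, lie 23384 bp apart.

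By strength, 4 members stood far above the rest of the family. Ranks were read by the signal value the authors gave each peak, 1 being the strongest, since the scale of that value differs between libraries. The median rank of the peaks at the 37 bound members was 1988, with a range of 5 to 4270, against 1801 over all bound genes. The median signal value was 152, against 162 over all bound genes and 145 over all optimal peaks. Members of rank up to 39 were 4 in number, and the next stood at 361. How many of all bound genes reach such ranks is not given here. Apart from these 4, the bound members held ranks spread over the whole optimal list. Peaks stronger than the upper quartile of that list stood at 8 of 37 members (21.6%), against 32.3% of all bound genes. Peaks stronger than its median stood at 19 of 37 (51.4%), against 58.8%. The family as a whole thus did not have stronger peaks than all bound genes.

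**Figure D1:**
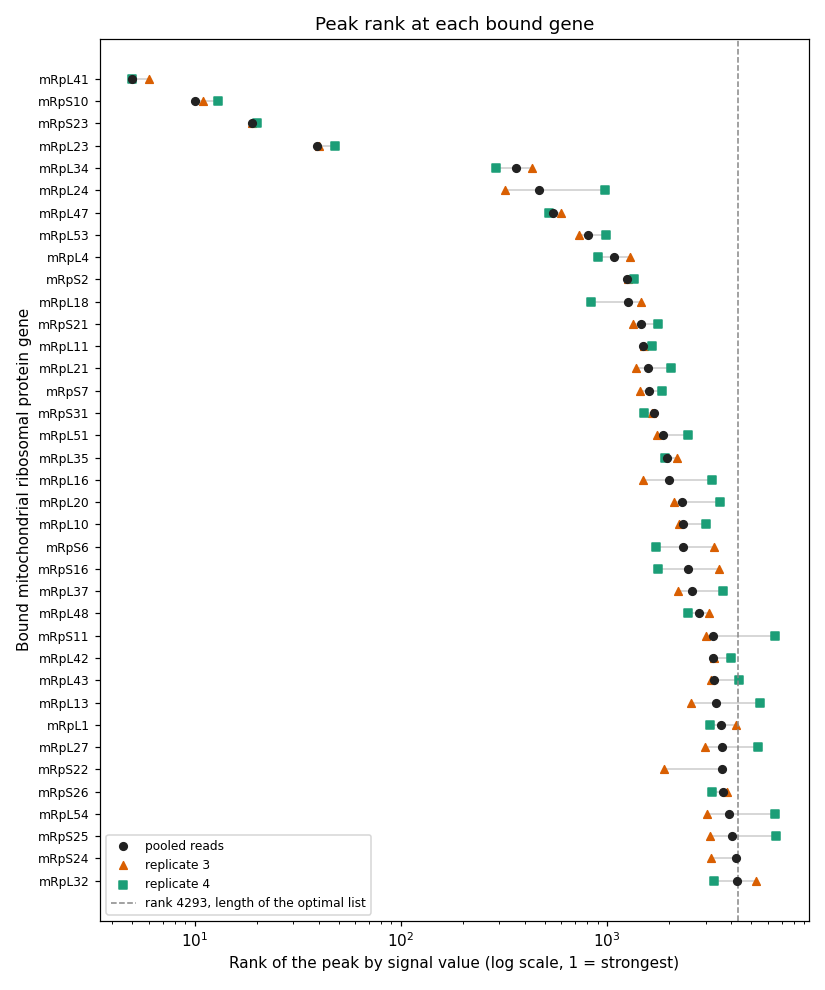
Rank of the peak (log scale, 1 is the strongest) at each of the 37 bound genes on pooled reads, and of the summit within 100 bp of it in replicate 3 and in replicate 4. The 4 strongest members hold ranks 5 to 39 on pooled reads and 5 to 48 in either replicate, and 35 of the 37 genes have a summit in both replicates.

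The strongest peak of the family stood at mRpL41 (FBgn0034001), a protein of the large subunit with no bacterial counterpart. It spanned 15217561 to 15217999 on 2R (dm6), with its summit in intergenic DNA 146 bp upstream of the transcript start. Its signal value was 1872 on pooled reads (rank 5), 1084 in replicate 3 (rank 6) and 804 in replicate 4 (rank 5). The replicate summits lay 141 and 142 bp upstream of the start, 5 and 4 bp from the pooled one. Both libraries therefore placed this peak at nearly the same base. CG8079, on the opposite strand, had the nearest other start, 616 bp from the summit.

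The peak at mRpS10 (FBgn0038307), which codes for the counterpart of bacterial protein S10, spanned 15229323 to 15229757 on 3R. Its signal values were 1442 on pooled reads (rank 10), 851 in replicate 3 (rank 11) and 591 in replicate 4 (rank 13). The summit lay 128 bp upstream of the mRpS10 start and 129 bp from that of Art3, a gene for an arginine methyltransferase on the opposite strand, so it stood in the middle of the 257 bp between them. Replicate summits were 139 bp (replicate 3) and 110 bp (replicate 4) upstream of mRpS10. The summit of replicate 3 is nearer to Art3 (118 bp) and that of replicate 4 nearer to mRpS10, so the replicates differ in which gene is the closer.

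At mRpS23 (FBgn0260407, small subunit) the peak spanned 13835247 to 13835643 on 2L, with signal values of 1286 on pooled reads (rank 19), 753 in replicate 3 (rank 19) and 540 in replicate 4 (rank 20). This summit lay 386 bp upstream of mRpS23 but 106 bp from the start of CenG1A, which is transcribed the other way and codes for a GTPase-activating protein of Arf. It counts for mRpS23 by distance, although the neighbour is nearer in the pooled list. The replicate summits were 386 and 384 bp upstream.

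mRpL23 (FBgn0035335) codes for the counterpart of bacterial L23, which lies at the exit of the ribosomal tunnel. Its peak (3L, 2373439 to 2373792) had signal values of 897 on pooled reads (rank 39), 556 in replicate 3 (rank 40) and 341 in replicate 4 (rank 48). Here the summit lay inside the gene, 48 bp downstream of the nearest of its 3 annotated starts and in the 5' UTR. The replicate summits lay 62 bp (replicate 3) and 27 bp (replicate 4) downstream. Among the 37 summits on pooled reads no other lay downstream of the nearest own start, although that of mRpL42 lay downstream of the outermost of its 2 starts and inside the gene.

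The next 8 by rank had signal values from 368 to 181. mRpL34 (2R, summit 191 bp upstream) had a signal value of 368 at rank 361, with 205 in replicate 3 (rank 432) and 164 in replicate 4 (rank 290). Its summit stood between its start and that of Dg, the dystroglycan gene. mRpL24 (2L, 147 bp upstream), counterpart of bacterial L24, had 329 at rank 465, with 233 in replicate 3 (rank 321) and 91.3 in replicate 4 (rank 973). This peak was thus stronger, relative to others, in replicate 3. mRpL47 (3R, 70 bp upstream) had 308 at rank 547, with 178 in replicate 3 (rank 594) and 126 in replicate 4 (rank 522). At mRpL47 the replicates were close in rank.

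mRpL53 (2R) had a signal value of 249 at rank 808 and ranks 733 in replicate 3 and 985 in replicate 4. Its summit lay 65 bp upstream of a start that it shares base for base with CG33155. mRpL4 (2L, 98 bp upstream), the counterpart of bacterial L4, had 212 at rank 1079, with rank 1285 in replicate 3 and 899 in replicate 4. The replicate with the better rank was thus replicate 3 at mRpL53 and replicate 4 at mRpL4. mRpS2 (2L, 217 bp upstream), the counterpart of bacterial S2, had 196 at rank 1249, and its ranks of 1257 and 1351 were close. mRpL18 (2R, 176 bp upstream) had 195 at rank 1257, with ranks 1458 and 831. The 12th member, mRpS21 (3R, 120 bp upstream), had 181 at rank 1457, with ranks 1333 and 1768. Its summit lay 186 bp upstream in replicate 3 and 55 bp upstream in replicate 4, on either side of the pooled position. mRpL4 and mRpS2 ranked ahead of mRpS21 in both replicates, whereas the order of mRpL4 and mRpS2 and the place of mRpL18 differ between them.

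The other 25 bound members had ranks from 1496 (mRpL11) to 4270 (mRpL32) and signal values from 179 to 92.2. From rank 1496 to 1988 these were mRpL11, mRpL21, mRpS7, mRpS31, mRpL51, mRpL35 and mRpL16. From rank 2314 to 2794 they were mRpL20, mRpL10, mRpS6, mRpS16, mRpL37 and mRpL48, and from rank 3252 to 3886 mRpS11, mRpL42, mRpL43, mRpL13, mRpL1, mRpL27, mRpS22, mRpS26 and mRpL54. Just inside the limit of the optimal list stood mRpS25 (rank 4005), mRpS24 (rank 4224) and mRpL32 (rank 4270). Just outside it stood mRpL2 (rank 4315 on pooled reads, signal value 91.6), mRpL17 (rank 4857, 84.4) and mRpS30 (rank 4957, 83.4). mRpL2, the counterpart of bacterial L2 near the catalytic centre of the ribosome, had its best entry at −936 bp on pooled reads (upstream of the start), at −895 bp in replicate 3 and at −78 bp in replicate 4. The replicates thus had different best entries at mRpL2.

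Both replicates carried most of these peaks. Peaks on the optimal list had, however, passed the threshold on the irreproducible discovery rate. Agreement between replicates at these peaks is thus partly built into the choice and is no independent check. A summit within 100 bp of the pooled one was present in replicate 3 for 37 of 37 members and in replicate 4 for 35, the exceptions being mRpS22 and mRpS24. The median shift of the summit was 8 bp in replicate 3 and 18 bp in replicate 4, with largest shifts of 73 and 83 bp. Over the 35 peaks with a summit in both, ranks had a Spearman rho of 0.780 between replicates. This rho is given as a description, because the peaks were so chosen and both lists were called against the same control file. Ranks lay within 2-fold of each other at 29 of 35, and the largest ratio was 3.03.

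Each replicate was also read alone, by its own 4293 strongest entries. Replicate 3 then had a summit at 39 members (53.4%), against 26.2% of all protein-coding genes, and replicate 4 at 34 (46.6%), against 25.5%. Replicate 3 held 36 of the 37 members bound in the optimal list, losing mRpL32 and gaining mRpL2, mRpL17 and mRpS30. Replicate 4 held 32, losing mRpL13, mRpL43, mRpS11, mRpS22 and mRpS25 and gaining mRpL2 and mRpS14. The summit of the pooled site itself ranked within that length at 36 of 37 members in replicate 3 and at 29 of 37 in replicate 4. In replicate 4 mRpL27, mRpL54 and mRpS24 counted only through entries elsewhere, at 986, −271 and −304 bp from the start, each more than 100 bp from the pooled summit. Both replicates alone had a summit at 32 members, 31 of them bound in the optimal list, and the other is mRpL2. The replicates differed most at mRpS22, whose best entry ranked 1893 in replicate 3 and 17163 in replicate 4.

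**Figure D2:**
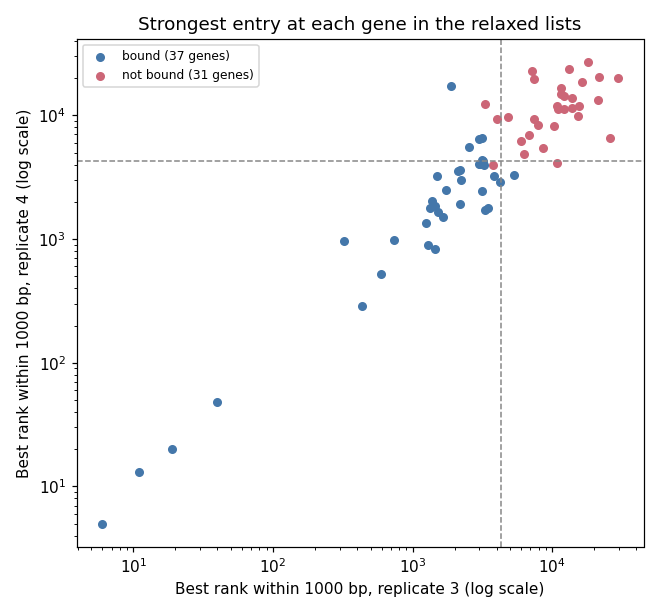
Rank of the strongest entry within 1000 bp of a start in replicate 3 (x axis) and in replicate 4 (y axis), both on log scales, for the 68 members with an entry in both relaxed lists. Dashed lines mark rank 4293, and most of the 37 bound genes lie below and left of both lines, with mRpS22 at 1893 and 17163 as the point farthest from the diagonal.

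Summits lay mostly upstream of the gene. Of the summits at the 37 bound members 34 were upstream of the nearest own start (91.9%), 2 lay on the start base itself (mRpL48 and mRpL51) and 1 was downstream (mRpL23). Over all bound genes 84.3% were upstream and 15.5% downstream. The median offset was 128 bp upstream with quartiles at 191 and 70.0 bp upstream, against a median of 120 bp upstream and quartiles at 247 and 39 bp upstream over all bound genes. The farthest was 490 bp away, at mRpS25, so no member owed its call to a summit between 500 and 1000 bp. By class of annotation, 28 summits were intergenic, 8 in a 5' UTR of any gene and 1 in an intron, that of mRpL53. Within 50 bp of the own start stood 6 summits, namely those of mRpL48, mRpL51, mRpL42 (10 bp upstream of its inner start), mRpS11 (28 bp upstream), mRpL1 (35 bp upstream) and mRpL23.

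Most of these genes share a promoter region with a gene on the opposite strand. A divergent neighbour, defined as a protein-coding start on the other strand at most 1000 bp upstream of a member's start, was present at 58 of 73 members (79.5%) and at 5052 of all 13945 genes (36.2%). The median gap between the starts was 279 bp at the 35 bound members with such a neighbour (range 20 to 793) and 290 bp at the 23 unbound ones (range 21 to 637). Among members with a divergent neighbour, the median gap was therefore about the same in bound and unbound ones.

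Peaks were found mainly at members with this layout. Of the 58 members with a divergent neighbour 35 were bound (60.3%), and of the 15 without one 2 were bound (13.3%), mRpL10 and mRpL13. Among all protein-coding genes the shares were 45.7% with a divergent neighbour and 15.0% without. The share with a divergent neighbour was thus the larger one both in the family and among all genes. These differences were not tested. How much of the family's share of 50.7% comes with its layout was not tested either. Both the call and the layout use a limit of 1000 bp. A gene with a divergent neighbour can thus also count a peak at the neighbour's start, which by itself raises the share with this layout. The split by layout was not repeated with each peak given only to the gene with the nearest start.

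**Figure D3:**
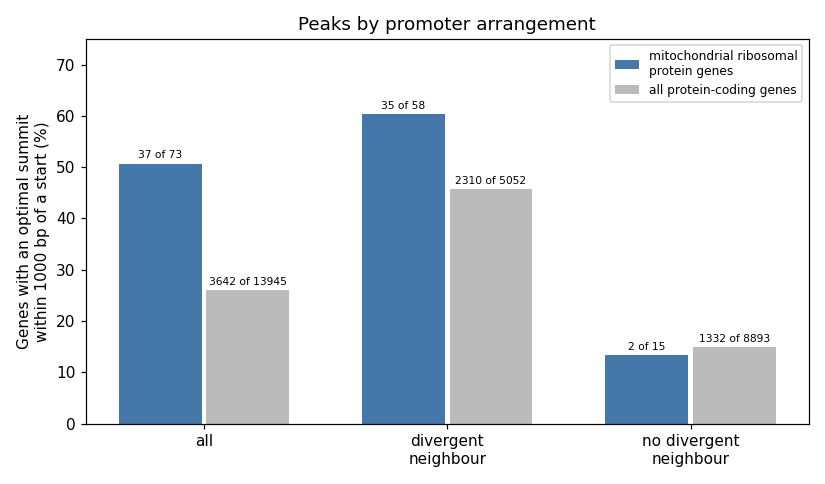
Share of genes called bound (y axis, %, an optimal summit at most 1000 bp from a start), for the 73 mitochondrial ribosomal protein genes (blue) and all 13945 protein-coding genes (grey), in all and split by the presence of a divergent neighbour within 1000 bp. Counts stand above the bars, which show 60.3% and 45.7% with a divergent neighbour and 13.3% and 15.0% without.

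A peak between 2 starts cannot be given to 1 of the genes by position alone. For 34 of the 37 bound members (91.9%) the nearest start of another gene was head to head with the own start, against 66.2% of all bound genes. At 29 of these 34 the summit lay between both starts (85.3%), against 1940 of 2412 over all bound genes with this layout (80.4%). In these 29 the summit stood a median of 49.1% of the way from the member to its neighbour. Single summits lay anywhere from 0% to 97.7% of the way. In the other 5 the summit lay in the member itself (mRpL23) or past the neighbour's start (mRpL11, mRpL18, mRpL27 and mRpS16). The 29 summits were picked for lying between both starts, and no such median over all genes is given beside theirs. It is therefore a description only.

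Another gene's start was nearer to the summit than the own start at 16 of 37 bound members (43.2%), against 32.0% of all bound genes. At mRpL13 and mRpL53 it was equally near, because these share their start with CG10602 and CG33155, and at 19 the own start was nearer. Each optimal summit was then given only to the gene with the nearest start, and to every gene in a tie. By this rule 21 of 73 members kept a peak (28.8%), mRpL13 and mRpL53 by a tie. The share of all protein-coding genes was 18.7%, ties included. Read alone, replicate 3 had 21 of 39 nearer to another gene and replicate 4 had 19 of 34. These 2 counts are given without a share over all genes, since the 32.0% belongs to the optimal list. Of the 16 peaks nearer to another gene, 14 were so in both replicates. The exceptions are mRpL32, where both replicate summits lay nearer to mRpL32 itself, and mRpS22, which has no replicate 4 summit there. Of the 19 nearer to the member, 13 were so in both replicates, and the others are mRpL20, mRpL34, mRpL48, mRpS10, mRpS21 and mRpS24.

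The 16 members whose peak is nearer to another gene have neighbours of varied function, each on the opposite strand. Several neighbours work in mitochondria themselves, and these were picked out after the values were seen. The summit counted for mRpL18 lay 176 bp from its start and 156 bp from that of Taz, the tafazzin gene for cardiolipin remodelling. For mRpL11 the distances were 251 and 125 bp, the neighbour being HtrA2, a mitochondrial protease. For mRpL35 they were 103 and 89 bp with Mitofilin, which shapes the inner membrane. For mRpL32 they were 142 and 122 bp with qless, an enzyme gene for ubiquinone synthesis. At mRpL18, mRpL11 and mRpL35 the neighbour was nearer in both replicates too. At mRpL32 the replicate summits lay 120 and 59 bp from mRpL32, against 144 and 205 bp from qless, so there the pooled reads and the replicates differ.

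Other neighbours act in the nucleus or in the cell cycle. At mRpS16 the summit lay 2 bp from a start of cg, the zinc finger protein Combgap known from Polycomb response elements, and 99 bp from mRpS16. At mRpL21 it lay 34 bp from rept, the gene of the ATPase Reptin, and 245 bp from mRpL21. At mRpS7 it lay 154 bp from Cdk1, the mitotic kinase, and 246 bp from mRpS7. At these 3 the neighbour was also the nearer gene in both replicates.

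The rest of the 16 had neighbours with other roles. At mRpS2 the summit was 5 bp from Mon1, a gene of endosome maturation, and 217 bp from mRpS2. mRpL24 had betaggt-I, a subunit of a prenyl transferase, at 71 bp, and mRpS25 had nmdyn-D6, of the nucleoside diphosphate kinase family, at 205 bp. CenG1A near mRpS23 is given above. The remaining 5 neighbours carry only gene numbers: CG8176 at 29 bp (mRpL47), CG15435 at 38 bp (mRpL27), CG30183 at 56 bp (mRpL43), CG13698 at 164 bp (mRpS26) and CG5003 at 187 bp (mRpS22). Distances to the neighbour thus ran from 2 to 205 bp, and those to the member from 70 to 490 bp.

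Of the 19 peaks nearer to the member, several had another gene almost as close. mRpL16 lay 149 bp from the summit and trr, a histone methyltransferase gene of the trithorax group, 157 bp. mRpS11 lay 28 bp and Ns1, the nucleostemin gene, 29 bp from it. mRpL34 and Dg were 191 and 193 bp away. The member was nearer in both replicates at mRpL16 and mRpS11, whereas at mRpL34 the summit of replicate 4 lay nearer to Dg (180 bp) than to mRpL34 (204 bp). At mRpL20 both replicates lay nearer to Icmt, an enzyme gene of protein methylation, at 168 and 190 bp, against 231 and 209 bp from mRpL20. At mRpL48 the summit of replicate 4 lay 2 bp from the start of CG17660 and 43 bp from that of mRpL48. At mRpS21 replicate 3 lay nearer to Droj2, a DnaJ chaperone gene, and replicate 4 to mRpS21. The neighbour was much farther than the member at mRpL4, with the neighbour CG4440 at 695 bp, mRpL41 with CG8079 at 616 bp, mRpL1 with CG9626 at 427 bp, mRpS31 with hzg at 378 bp and mRpS6 with Cip4 at 367 bp. mRpL10 alone had no other start within 1000 bp of its summit, the nearest being CG11617 at 3076 bp.

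**Figure D4:**
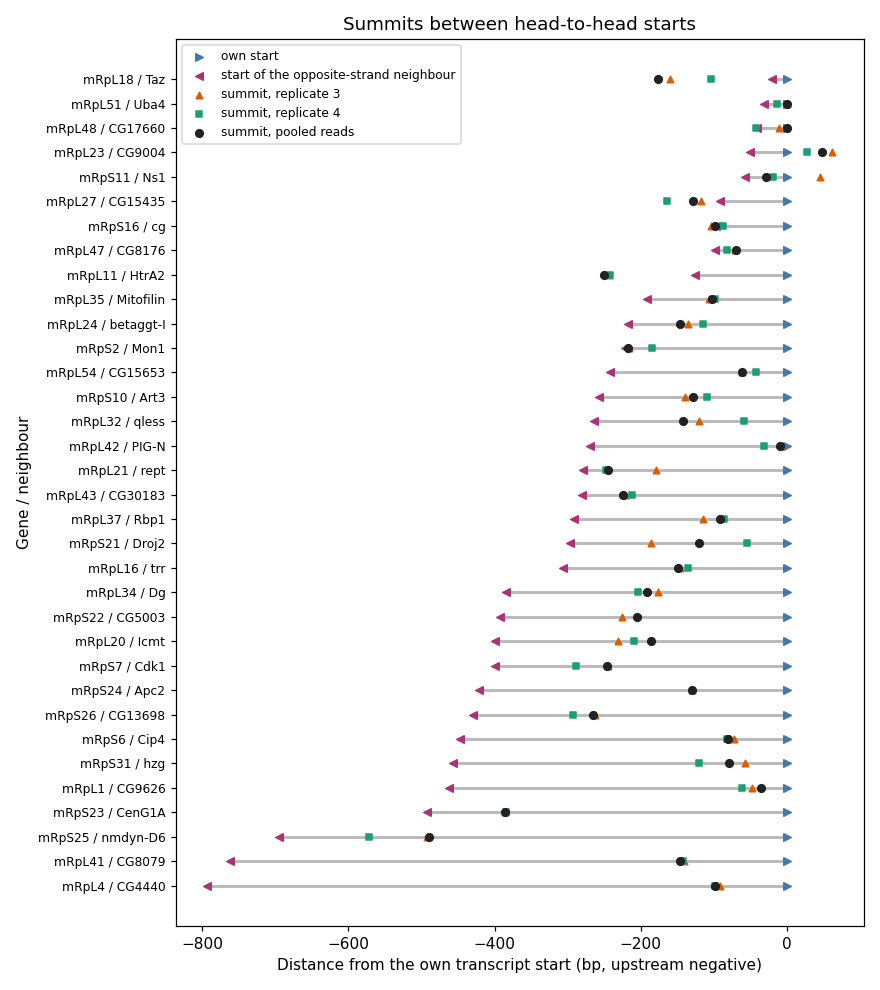
Position of the summit on pooled reads and in each replicate (x axis, bp from the member's own start, upstream negative) at the 34 bound genes whose nearest other start is head to head, ordered by the distance between both starts. Right-pointing triangles mark the member's start and left-pointing ones the neighbour's, and 29 pooled summits lie on the grey line between them.

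The cytoplasmic ribosomal protein genes, 92 genes with symbols that begin with RpL or RpS, are the closest family by function. Of these 70 were bound (76.1%), with a median rank of 991.5, and of the mitochondrial family 37 of 73 at a median rank of 1988. Their summits lay a median of 37 bp from the start, against 128 bp in the mitochondrial family and 146 bp over all bound genes. Within 50 bp of it were 39 of 70, against 6 of 37 (16.2%) and 18.1% of all bound genes. A start of another gene was nearer at 8 of 70, against 16 of 37 and 32.0% of all bound genes. A divergent neighbour was present at 55 of 92 (59.8%). Among cytoplasmic genes without one 25 of 37 were bound (67.6%), whereas in the mitochondrial family 2 of 15 were (13.3%). Over all protein-coding genes without one the share was 15.0%. With a divergent neighbour, 45 of 55 cytoplasmic genes (81.8%) and 35 of 58 mitochondrial ones (60.3%) were bound, against 45.7% of all protein-coding genes. By the medians, the cytoplasmic family thus had stronger peaks closer to the start, and a smaller share of its members has a divergent neighbour. Its strongest peak had rank 61, however, behind the 4 strongest mitochondrial members (ranks 5 to 39). None of these differences was tested.

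The words searched were rare at the members' summits. Within 50 bp of the strongest summit GCCAT was present at 6 of 37 members (16.2%), and at 15.8% of all 4293 optimal summits. These members were mRpL41, mRpL47, mRpL21, mRpL16, mRpS16 and mRpL48. The centre of the word lay 1 bp from the summit at mRpL41, 3 bp at mRpL21 and 4 bp at mRpL47 (windows of the last pair shown above). The fuller form GCCATNTT was present at 3 (8.11%), mRpL41, mRpL16 and mRpS16, and at 2.42% of all optimal summits. AGATGGC was present at mRpS16 alone, where it overlaps that match. Of the optimal summits within 500 bp of a protein-coding start, where all 37 lie, 16.3% had GCCAT and 2.34% had GCCATNTT. In promoters, taken as 250 bases before to 50 after the outermost start, GCCAT was in 12 of the 37 bound members (32.4%), 13 of the 36 unbound ones (36.1%) and 41.3% of all protein-coding genes. GCCATNTT was in 5 bound members (13.5%), 1 unbound member (2.78%) and 5.97% of all. A match describes letters only, and these counts of members are small.

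TATCGATA was found in promoters of the family away from the summits. It was in the promoter of 15 of 73 members (20.5%), against 9.37% of all protein-coding genes. The bound members had it in 7 of 37 promoters (18.9%) and the unbound ones in 8 of 36 (22.2%). Within 50 bp of the summit on pooled reads it was present at 0 of 37 members, against 3.35% of all optimal summits. Of the optimal summits within 500 bp of a protein-coding start, where all 37 lie, 5.43% had it. Read alone, replicate 3 had it at the summit of 1 member and replicate 4 at 2. In 7 bound members, mRpL4, mRpL10, mRpL16, mRpL20, mRpL32, mRpS23 and mRpS25, the centre of a copy lay between 38 bp upstream and 22 bp downstream of the own start. The nearest copy was 53 bp from the summit at mRpL10, 118 bp at mRpL32, 120 bp at mRpL4 and mRpL16, 179 bp at mRpL20, 180 bp at mRpS23 and 452 bp at mRpS25. The word thus lay close to the starts of these genes, and the pooled summits lay more than 50 bp from it.

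Other words gave small counts. GGTCACACT was under 1 summit, that of mRpL48 (2.70%, against 1.44% of all optimal summits), and in the promoters of 8 of 73 members (11.0%, against 6.05% of all genes). ATCGAT was at 1 summit (mRpL10, 2.70%, against 8.94%) and in 27 of 73 promoters (37.0%, against 23.3%). TGCGCA was at 3 summits (8.11%, against 2.70%), mRpL21, mRpS16 and mRpS26, and in 8.22% of the promoters against 6.98%. CACGTG was at 2 (5.41%, against 1.33%), mRpL16 and mRpL27, and in 6.85% of the promoters against 4.24%. TATAAA was at 4 summits (10.8%, against 16.5%) and in 46.6% of the promoters against 45.9%, and GAGAG at 2 (5.41%, against 11.2%) and in 16.4% against 29.8%. With 1 to 4 members each, no word covers the family. G and C made up a median of 35.6% of the 37 windows (20.8% to 61.4%), against 36.6% over all optimal peaks.

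Bound members were spread over the chromosome arms unevenly. On 2L 10 of 12 members were bound (83.3%, against 25.2% of all genes of that arm), on 2R 8 of 12 (66.7%, against 741 of 2852), on 3R 11 of 21 (52.4%, against 27.5%) and on 3L 6 of 17 (35.3%, against 26.1%). On the X chromosome 2 of 11 were bound, mRpL16 and mRpS25 (18.2%, against 25.5%), although 9 of these 11 have a divergent neighbour. No member lies on chromosome 4. The arms were compared after the values were seen and not tested.

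The 36 unbound members were rarely without any entry. The relaxed lists of each replicate hold 30000 entries of peaks and background. In these, 68 of 73 members had a summit within 1000 bp of a start in both replicates (93.2%), against 55.9% of all protein-coding genes. Among the unbound members alone it was 31 of 36, against 40.4% of all unbound genes. Only mRpL30 had no entry in either replicate or in the pooled list. An entry in 1 replicate alone stood at mRpL14 (rank 23165), mRpL38 (rank 15493) and mRpS34 (rank 24576) in replicate 3 and at mRpL46 (rank 23254) in replicate 4. mRpL15 and mRpS28 had entries in both replicates but none on pooled reads.

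The best entries of unbound members on pooled reads ranked from 4315 to 19835, with a median of 10952 over the 29 that had one. Ranks between 4857 and 7491 were held by mRpL17, mRpS30, mRpL50 (5027), mRpS14 (6170), mRpL28 (6647), mRpS29 (6840), mRpL9 (7004), mRpL55 (7112) and mRpS18A (7491). mRpL50 held rank 6238 in replicate 3 and 4859 in replicate 4, with entries at −35 and −21 bp from its start. mRpS14 differed more, with ranks 10864 and 4101. At mRpL50 both replicates thus placed a weak entry within 50 bp of the start. mRpS18B (9033), mRpL3 (9367) and mRpS17 (9384) followed. The entry at mRpS18B ranked 4836 in replicate 3, at −70 bp, and 9773 in replicate 4, at −642 bp, so these are separate sites.

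Weaker entries, from rank 10618 to 19835 on pooled reads, stood at mRpL33, mRpS33, mRpS5, mRpL36, mRpL12, mRpL45, mRpL52, mRpS9, mRpS18C, mRpL22, mRpL44, mRpL40, mRpL49, mRpL19, mRpL39 and mRpS35. mRpL12 codes for the stalk protein of the large subunit, and its entry lay 416 bp downstream of the start at rank 12121. Of the 29 pooled entries 20 were upstream of the own start, against 34 of 37 in the bound members. At ranks this low the lists hold background, and binding at these genes was not detectable with the threshold the authors used.

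A pair of mitochondrial ribosomal proteins have symbols that the naming rule missed. tko, the gene of mitochondrial S12 whose mutants are sensitive to mechanical shock, was bound at rank 3281 with the summit 34 bp upstream of the start, and ranks 3965 in replicate 3 and 2699 in replicate 4. bonsai, the gene of mitochondrial S15, was not bound, with a best rank of 26949 on pooled reads.

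Other genes of mitochondrial gene expression were read in the same way, from lists chosen by name with earlier results of these data known. The symbols ico, mtIF2, mtIF3, Twnk, mtRNApol and tam had no match in the annotation. Of 8 translation factors 3 were bound (37.5%), the elongation factor genes mEFTu1 (rank 4014) and mEFTu2 (rank 3179) and the release factor gene mRF1 (rank 3025). mEFTs, mEFG1, mIF2, mIF3 and mRRF1 were not. Of 15 mitochondrial aminoacyl-tRNA synthetases 5 were bound (33.3%). The strongest, at LeuRS-m (rank 247), lay 982 bp upstream of that gene and 816 bp from Dhc64C, and ArgRS-m (1041), AspRS-m (3213), PheRS-m (3236) and SerRS-m (4267) followed. The share of all protein-coding genes was 26.1%. With 8 and 15 genes, the shares of these lists rest on few genes, and their differences from it were not tested. A divergent neighbour was present at 2 of the 8 factors and 7 of the 15 synthetases, against 36.2% of all protein-coding genes.

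Genes for the upkeep of mitochondrial DNA and RNA had 9 of 16 bound (56.2%), against 26.1% of all protein-coding genes. A divergent neighbour was present at 11 of the 16, against 36.2% of all protein-coding genes. PNPase, the polynucleotide phosphorylase gene, had rank 14 on pooled reads and in both replicates, with the summit 78 bp downstream of its start. SLIRP2, of a family that stabilises mitochondrial transcripts in mammals, had rank 44 and SLIRP1 rank 802. mtSSB, for the single-strand binding protein, had rank 1595, and mTerf5, PolrMT, MTPAP, mtTFB1 and PolG2 ranked from 2913 to 4104. TFAM, which packages mitochondrial DNA, mtTFB2, bsf, mTTF, mTerf3, PolG1 and mtDNA-helicase were not bound. Each of these 4 lists thus had both bound and unbound genes.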

How the data were processed

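Peak lists on dm6 were used as deposited. Per the texts deposited with them, the authors called peaks against 1 control file, made a relaxed list of peaks and background for each replicate and for the pooled reads (30000 entries each), and kept an optimal list by the irreproducible discovery rate (4293 peaks, which are the strongest of the pooled list). Each deposited peak has the authors' signal value, used as a rank within its list, a −log10 q-value from the authors, not used for ranks, and the summit's distance from the peak start. The sources used here name no aligner, peak caller or threshold. Read depth is unknown. Lists on dm3 were not analysed here. Fragments were 200 to 800 bp, per the labels.

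Gene models came from Ensembl release 115 and sequence from RefSeq's release 6 genome, whose arms are longer than every peak end. A summit (the peak start plus that distance) was set against every transcript start of 13945 protein-coding genes on 6 arms. Strongest means the best rank within 1000 bp. Ranks run by signal value. Python 3.11.15, pandas 2.3.3, numpy 2.4.6 and scipy 1.17.1 were used, and the matching and word search were tested on simulated data. Members, gene lists and words were chosen with earlier results of these data known. No test was made, since there is 1 group and no contrast. Shares are counts over all annotated genes and carry no interval. Named in full are the 12 strongest members, every member nearer to another gene and every summit within 50 bp of a start, and all other members by rank. A member's replicate entry is the summit within 100 bp of the pooled one, or for unbound members the strongest entry within 1000 bp. Alternatives were the strongest part of the optimal list, each replicate alone, other distances, other starts and other motif windows.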

Additional observations from a re-analysis of the deposited data

How the results depend on the processing

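The count of 37 bound members was 34 to 39 with 1 replicate alone, 37 within 500 bp, 33 within 250 bp, 37 with the outermost start only and 28 where the peak had to cover the start. With the optimal list limited to the peaks above its median rank, 19 were bound, 10 held the nearest start, 9 had a peak nearer to another gene, and the median rank was 1249, all of which follow from using fewer peaks. Members that hold the nearest start numbered 15 to 19 with 1 replicate alone, peaks nearer to another gene 19 to 21, and the median rank ran from 1872.5 to 2111. The median distance from the start, 128 bp, was 109.5 to 135 bp with 1 replicate alone and 103 bp within 250 bp, where far summits drop out. With 10000 entries of each relaxed list 45 members, in place of 68, had a summit in both replicates. The 58 members with a divergent neighbour were 53 within 500 bp and 59 within 2000 bp. Of 40 alternatives for the words at summits 15 moved a count by over 1.5 times, all counts of 5 or fewer except TATAAA within 100 bp (10, in place of 4), and TATCGATA was at 1 or 2 members in place of 0 in 3 of them. Most counts in this paragraph have no share over all genes at the same setting beside them. They describe how the family's own counts move, and not how the family differs from all genes. No paired analysis was possible because there is 1 group.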
